A study of Mus musculus with 160 samples.

Results

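Ddit4l and 8 other genes whose products regulate the mTOR kinase were followed through 5 tissues of Q175 mice, a knock-in model of Huntington's disease, and of wild-type (WT) mice. The genes were taken by symbol, and each of the 9 symbols (Ddit4, Ddit4l, Sesn1, Sesn2, Sesn3, Deptor, Prr5, Prr5l and Akt1s1) matched 1 Ensembl identifier among the 43432 genes of the deposited tables. All 9 had enough counts to be tested in each of the 5 tissues, which were striatum, cortex, tibialis muscle, liver and heart. Of all the genes in the tables, 33516 had a count in any library.

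The groups were heterozygous Q175 mice on vehicle, heterozygous Q175 mice on CHDI-00390576 at 30 mg/kg, heterozygous Q175 mice on the same compound at 100 mg/kg, and WT mice on vehicle. All were on a C57BL/6J background, and no WT group received the compound. CHDI-00390576 inhibits the class IIa histone deacetylases. It was given orally, 2 doses a day, from 4 weeks of age until 6 months, when tissue was taken. Each group held 8 animals, 4 males and 4 females, and each of the 32 animals gave all 5 tissues, so that 160 libraries fell into 20 groups. Q175 mice on vehicle set against WT mice address the effect of the expanded Htt allele, and each dose set against Q175 vehicle addresses the effect of the inhibitor in mice that carry it.

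mTOR is a protein kinase that sets protein synthesis, growth and autophagy by nutrients, growth factors and stress. It works in complex 1, which is built on Raptor, and in complex 2, which is built on Rictor. Ddit4 (REDD1) is a stress-induced inhibitor of complex 1 that acts through the TSC complex, and Ddit4l (REDD2) is its paralog, long known from skeletal muscle. The sestrins Sesn1, Sesn2 and Sesn3 restrain complex 1 through the GATOR proteins when amino acids are scarce. Deptor binds mTOR itself and inhibits both complexes. Akt1s1 (PRAS40) binds Raptor and inhibits complex 1 until Akt phosphorylates it, and Prr5 and Prr5l (Protor-1 and Protor-2) bind Rictor in complex 2.

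The results turn on the paralogs Ddit4l and Ddit4, which differed in where they are expressed. Of the 2, only Ddit4l fell in striatum of Q175 mice against WT mice on vehicle. The sequence around each transcription start is shown. Each window runs from 250 bases before to 50 bases after the start, in RefSeq on GRCm38.p6, at chr3:137623422-137623721 on the plus strand for Ddit4l and at chr10:59951721-59952020 on the minus strand for Ddit4. Capitals mark the GC box GGGCGG, the CCAAT box, ACGTG (the core of the hypoxia response element) and TATAAA, on either strand.
Ddit4l: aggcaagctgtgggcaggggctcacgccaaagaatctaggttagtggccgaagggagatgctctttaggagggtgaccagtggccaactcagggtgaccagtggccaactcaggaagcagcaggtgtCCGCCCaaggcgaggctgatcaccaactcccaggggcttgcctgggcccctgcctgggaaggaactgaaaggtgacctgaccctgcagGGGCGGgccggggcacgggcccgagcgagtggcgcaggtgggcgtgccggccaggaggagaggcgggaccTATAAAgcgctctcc
Ddit4: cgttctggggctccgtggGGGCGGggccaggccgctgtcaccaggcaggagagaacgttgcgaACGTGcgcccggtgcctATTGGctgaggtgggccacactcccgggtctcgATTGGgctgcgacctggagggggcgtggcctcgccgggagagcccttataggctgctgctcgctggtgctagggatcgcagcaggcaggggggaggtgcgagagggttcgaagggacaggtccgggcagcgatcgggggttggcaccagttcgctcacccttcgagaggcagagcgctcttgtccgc
The Ddit4l window held 2 GC boxes before the start and TATAAA after it, beginning at base 36 of the transcribed part, and its GC content was 65.7%. The Ddit4 window held 1 GC box, 2 CCAAT boxes and 1 ACGTG, and its GC content was 69%. Over all 32851 windows of this length the median GC content was 52.7%, and 35.7% held a GC box, 37.4% CCAAT, 19.6% ACGTG and 13.6% TATAAA. Neither window held the E-box CACGTG, which contains ACGTG and was present in 7.15% of windows, or the MEF2 site, present in 3.19%. A match says only that the letters are there. A window was found for 8 of the 9 genes, 12 windows in all, and not for Deptor.

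Library totals were between 29.81 M and 44.88 M estimated counts, where M is mega. Levels below are CPM, counts scaled to a common library total by TMM, as mean ± SD over 8 libraries. A difference is given as a log2 fold change ± SE, followed by the adjusted p of edgeR's quasi-likelihood test (Benjamini-Hochberg over all genes tested in the tissue, threshold 0.05), and a gene is said to rise or fall only past that threshold. The markers listed for each tissue were present in all of its own libraries. Males and females are numbered within each tissue and group, so the same number in different tissues need not be the same animal. RNA of another tissue made up over 1% of 5 libraries. Skeletal muscle made up 7.24% of the cortex library of male 3 and 33.0% of that of female 4, both on 30 mg/kg, and brain made up 12.2% of the tibialis library of male 1 on 100 mg/kg and 12.4% and 6.85% of those of WT female 3 and male 4. All 5 also held RNA of the other sex above the same limit, as did tibialis libraries of Q175 vehicle female 3 (1.43%) and male 4 (1.11%), by Xist in males and Y-linked genes in females. Values include these libraries unless said otherwise, also in the means over the 5 tissues of an animal. Tables of counts were rounded to whole numbers, and FPKM was used where levels of different genes or tissues are set side by side.

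In WT mice on vehicle, Ddit4l was a gene of skeletal muscle and, at a lower level, of brain. It reached 77.4 ± 15.5 FPKM in tibialis, 12.2 ± 1.27 in striatum, 10.7 ± 1.61 in cortex, 0.708 ± 0.455 in liver and 0.569 ± 0.130 in heart (SD, n = 8 each). Tibialis stood 6.33-fold above striatum with no overlap between the libraries, and cortex 15.04-fold above liver with no overlap, while striatum and cortex overlapped (edgeR with animal as a block, adjusted p = 0.492). Relative to the median difference of all genes, Ddit4l was lower in striatum than in tibialis by a log2 difference of -4.08 on TMM-scaled counts and -3.73 on FPKM. That median difference, striatum minus tibialis, was 0.29 on TMM-scaled counts and 1.10 on FPKM. It was higher in tibialis than in heart by 7.71 and 7.22. Heart and liver, at the bottom of the order, were told apart by counts (adjusted p = 0.0339) and not by FPKM (limma, adjusted p = 0.732).

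Ddit4 followed another order and varied less. It averaged 20.4 ± 4.06 FPKM in heart, 15.3 ± 1.79 in striatum, 14.7 ± 4.23 in cortex, 11.2 ± 3.72 in tibialis and 5.60 ± 2.45 in liver. All neighbours in that order overlapped between libraries, and striatum and cortex did not pass the test (adjusted p = 0.399). Ddit4l therefore exceeded Ddit4 in tibialis and lay below it in the other 4 tissues.

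The sestrins divided by tissue. Sesn1 was highest in heart, at 40.6 ± 2.26 FPKM, against 26.9 ± 1.73 in cortex, 23.1 ± 0.956 in striatum, 11.2 ± 3.81 in tibialis and 4.62 ± 0.660 in liver. Its 2.07-fold higher FPKM in striatum than in tibialis did not appear in TMM-scaled counts (adjusted p = 0.981), and relative to the median of all genes the FPKM difference was 0.017 on the log2 scale. Sesn3 was a brain gene, at 19.3 ± 6.59 FPKM in striatum and 13.4 ± 4.83 in cortex against at most 1.91 ± 0.704, in liver. The length implied by the deposited FPKM of Sesn3 was 2162 bases, against 9125 bases for its longest transcript in the GENCODE annotation used for base composition. Sesn2 was low throughout, from 2.48 ± 0.517 FPKM in liver to 0.404 ± 0.239 in tibialis.

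Of the direct mTOR and Raptor inhibitors, Deptor was highest in liver, at 22.0 ± 4.86 FPKM, then in tibialis at 10.3 ± 2.93, striatum at 5.53 ± 0.663, cortex at 5.07 ± 0.872 and heart at 2.50 ± 0.850. Akt1s1 was near equal in liver and tibialis, at 17.9 ± 1.85 and 17.6 ± 10.3 FPKM (adjusted p = 0.611), and lowest in striatum, at 4.29 ± 1.03. The Rictor partners were split between organs: Prr5l was highest in striatum, at 5.50 ± 0.163 FPKM, against 2.98 ± 0.213 in cortex and at most 0.319 ± 0.101 elsewhere, whereas Prr5 was highest in liver, at 2.002 ± 0.342, and did not exceed 1.17 ± 0.582 in the other tissues. Without the 2 brain-containing libraries (n = 6) WT tibialis averaged 80.6 ± 16.2 FPKM for Ddit4l, 9.86 ± 3.34 for Ddit4, 10.8 ± 4.01 for Sesn1, 10.9 ± 3.16 for Deptor and 16.4 ± 11.9 for Akt1s1. Tibialis Prr5l was 0.0659 ± 0.0353 FPKM without them and 0.136 ± 0.140 with them. Liver Prr5l lay next to heart Prr5l, at 0.306 ± 0.0359 FPKM, and this pair did not pass the test (adjusted p = 0.0837).

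Tissue differences are the rule among all genes, and the 9 genes followed it. On counts, 2 of 9 differed between striatum and cortex, where 26.3% of 18653 genes did. Striatum against tibialis gave 6 of 9 (80.9% of all genes), striatum against heart 9 of 9 (84.5%), striatum against liver 9 of 9 (86.4%), cortex against tibialis 7 of 9 (81.8%), cortex against heart 7 of 9 (83.1%) and cortex against liver 9 of 9 (85.9%). Tibialis against heart gave 8 of 9 (69% of all genes), tibialis against liver 8 of 9 (81.1%) and heart against liver 8 of 9 (70.7%). On FPKM the counts were 9 for striatum against tibialis, 7 for striatum against heart, 9 for cortex against tibialis, 8 for cortex against heart, 8 for cortex against liver, 7 for tibialis against heart and 5 for heart against liver, with the other 3 as on counts. Without the brain-containing tibialis libraries they were 3 for striatum against cortex, 8 for cortex against tibialis, 8 for cortex against heart and 9 for heart against liver, with the other 6 as on counts of all libraries. The percentages belong to the count fit of all libraries, and shares of all genes on the other fits are not given here. Over the 20 groups of tissue and arm, the genes whose mean levels were most like Ddit4l among 12621 searched were Frat2, Amot and Eya4, each with r = 0.99, and those most like Ddit4 were Rcan1 and Ace, each with r = 0.94, a description over points that share tissues.

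**Figure D1:**
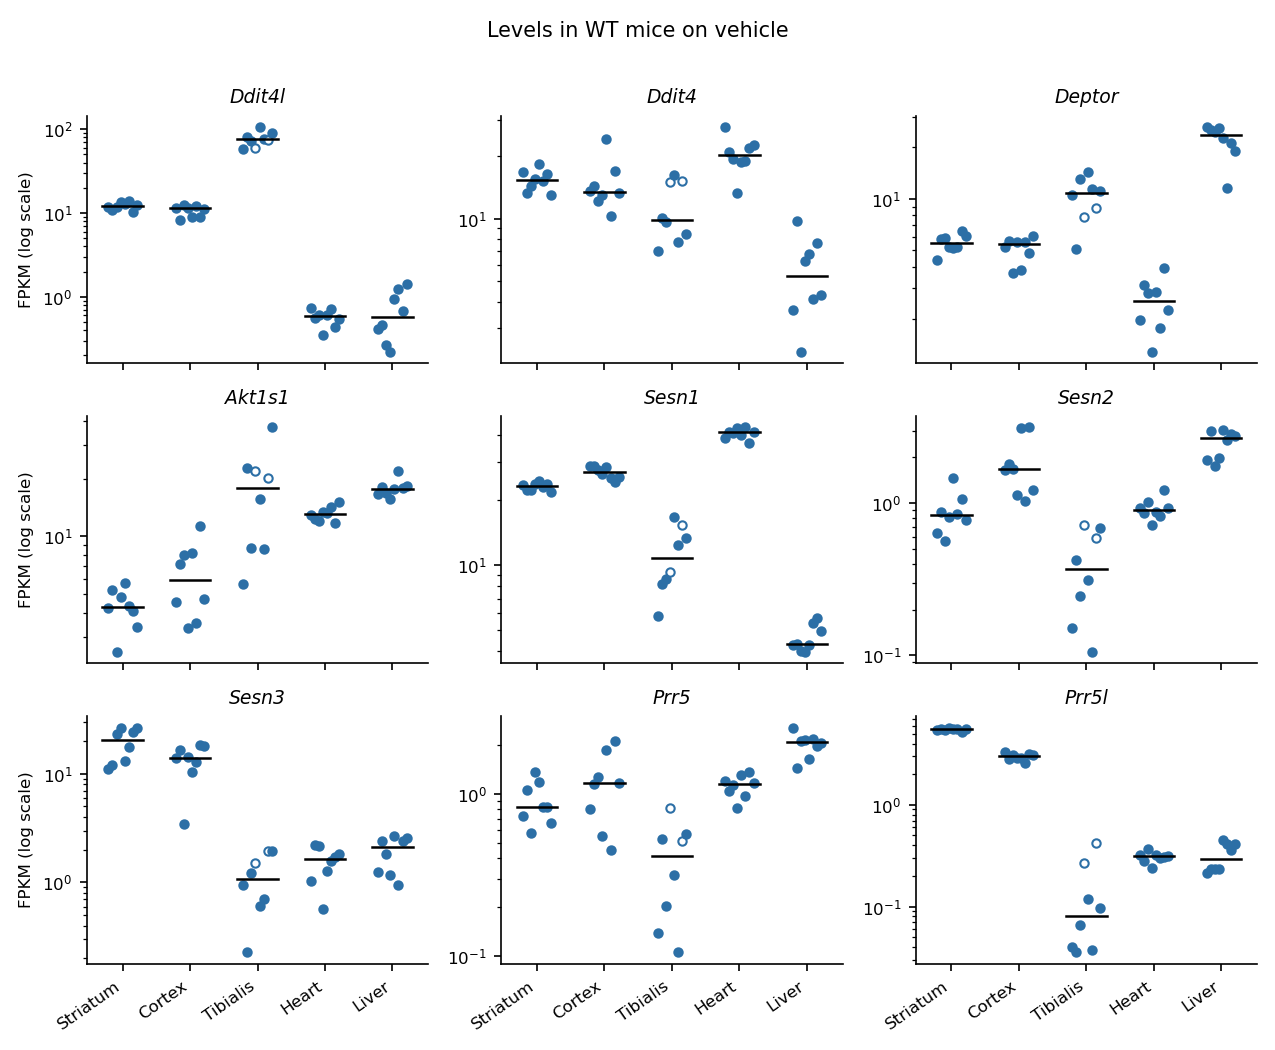
Levels of the 9 genes in WT mice on vehicle, in FPKM on a log axis, with 1 point per library (8 per tissue) and a bar at the median; open points are the 2 tibialis libraries that held over 1% brain RNA. Ddit4l reached 77.4 FPKM in tibialis and under 1 FPKM in heart and liver, and Prr5l and Sesn3 were highest in striatum and cortex.

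In striatum, Ddit4l was lower in Q175 than in WT mice, and on vehicle in every library. It had a lowest value of 8.21, a median of 9.70 and a highest of 22.0 CPM in Q175 striatum, against 27.0, 32.5 and 35.9 CPM in WT striatum, so that all 8 Q175 libraries lay below all 8 WT libraries. The means were 11.3 ± 4.54 CPM in Q175 and 32.1 ± 3.32 CPM in WT (SD, n = 8 each), a fall of 2.84-fold (log2 fold change -1.51 ± 0.21, edgeR adjusted p = 2.47e-05). Among the Q175 libraries male 2 stood apart at 22.0 CPM, and the next highest was 12.6 CPM. With single libraries left out in turn the log2 fold change stayed between -1.70 and -1.45, and it was -1.40 in males alone (adjusted p = 0.0587) and -1.63 in females alone (adjusted p = 0.000213).

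The lower striatal level was there in treated Q175 mice too. At 30 mg/kg Ddit4l had a lowest value of 7.61, a median of 10.3 and a highest of 14.3 CPM, again below every WT library (10.7 ± 1.93 CPM in Q175 at 30 mg/kg against 32.1 ± 3.32 CPM in WT, log2 fold change -1.59 ± 0.21, edgeR adjusted p = 1.05e-05). At 100 mg/kg the lowest was 9.03, the median 11.4 and the highest 27.6 CPM, and 7 of 8 libraries lay below all of WT (log2 fold change -1.19 ± 0.21, edgeR adjusted p = 0.000502). Males 3 and 4 at 100 mg/kg had 27.6 and 21.6 CPM, and the other 6 libraries had 9.03 to 13.4 CPM. Neither dose passed the test against Q175 vehicle: the log2 fold change of the 30 mg/kg group was -0.08 ± 0.21 (adjusted p = 0.816) and that of the 100 mg/kg group 0.32 ± 0.20 (adjusted p = 0.292).

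**Figure D2:**
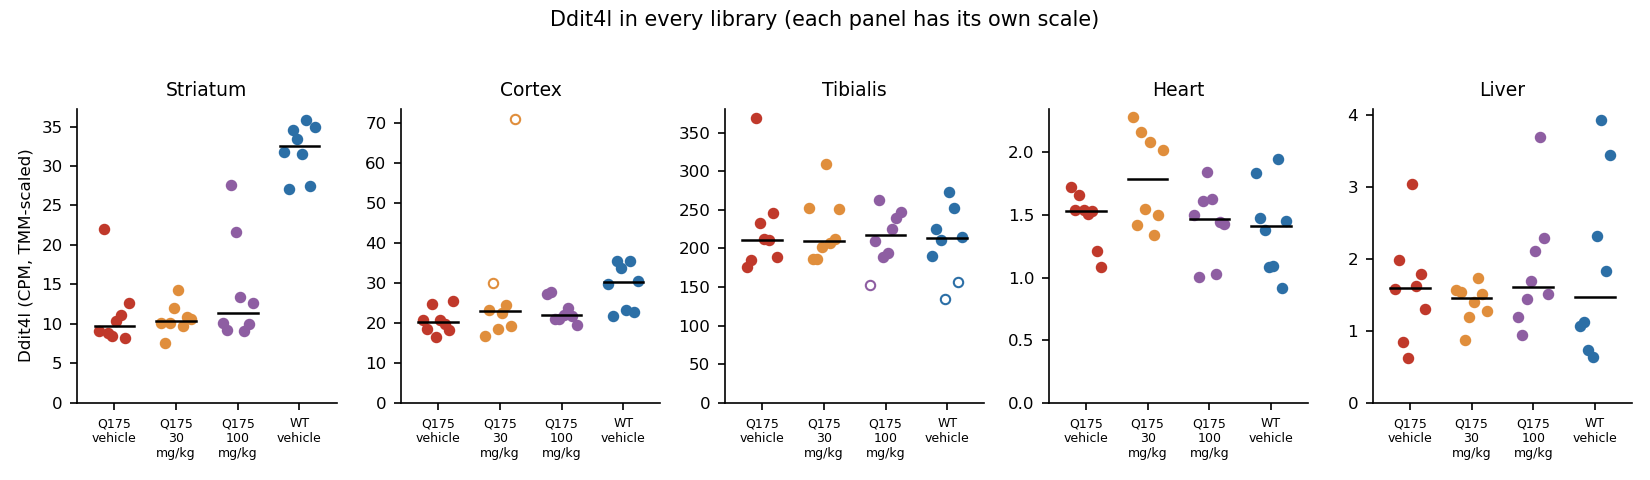
Ddit4l in every library, in CPM on a linear axis that starts at 0 and differs between tissues, by group (8 libraries each), with a bar at the median; open points held over 1% RNA of another tissue. In striatum the Q175 medians were 9.70, 10.3 and 11.4 CPM and the WT median 32.5 CPM, and the highest cortex point, 71.0 CPM, held muscle RNA.

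Deptor also fell in Q175 striatum, by less. On vehicle it had a lowest value of 24.3, a median of 33.3 and a highest of 37.8 CPM in Q175, against 38.5, 46.9 and 55.6 CPM in WT, again without overlap. The means were 32.6 ± 4.35 CPM in Q175 and 47.7 ± 6.75 CPM in WT, 1.46-fold lower (log2 fold change -0.55 ± 0.11, edgeR adjusted p = 0.00224). At 30 mg/kg the lowest, median and highest were 29.4, 38.9 and 49.7 CPM, and at 100 mg/kg 32.4, 37.9 and 51.7 CPM, so that both treated groups overlapped Q175 vehicle and WT. The 30 mg/kg group had a log2 fold change of 0.26 ± 0.11 against Q175 vehicle (adjusted p = 0.288) and of -0.29 ± 0.11 against WT (adjusted p = 0.128). The 100 mg/kg group had 0.33 ± 0.11 against Q175 vehicle (adjusted p = 0.199) and -0.22 ± 0.11 against WT (adjusted p = 0.323).

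The Deptor values moved with the base composition of the libraries. For each library the slope over genes of log2 CPM on transcript GC content was taken. Its median in striatum was 0.199 in Q175 vehicle, -0.14 at 30 mg/kg, -0.165 at 100 mg/kg and 0.0169 in WT, and striatal Deptor, whose transcript has 44.3% GC, followed it with r = -0.78 over 32 libraries after arm and sex were removed (rho = -0.79, each with an adjusted permutation p of 3.7e-05 or less). With the slope as a covariate, a choice made after the values were seen, Deptor fell by 0.44 in Q175 vehicle (adjusted p = 5.54e-05), by 0.37 at 30 mg/kg (adjusted p = 0.000316) and by 0.31 at 100 mg/kg (adjusted p = 0.00284), each against WT on the log2 scale. Ddit4l fell by 1.43 on that fit in Q175 vehicle (adjusted p = 2.64e-05).

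The other 7 genes did not pass the test between Q175 and WT striatum on vehicle, so that 2 of 9 fell and 0 rose, in a comparison in which 5.76% of 17229 genes passed. The median log2 fold change of the 9 was -0.056, against 0.0189 over all genes tested. The largest of the other 7 was Akt1s1, with 8.29 ± 2.55 CPM in Q175 and 6.27 ± 1.47 CPM in WT (log2 fold change 0.40 ± 0.19, adjusted p = 0.211). Sesn1 had 60.9 ± 3.72 CPM in Q175 and 63.2 ± 2.77 CPM in WT, and Ddit4, the stress-induced paralog, had 27.0 ± 5.15 CPM in Q175 and 26.0 ± 2.60 CPM in WT (log2 fold change 0.05 ± 0.12). Against WT, 1 of 9 passed at 30 mg/kg (6.69% of all genes) and 2 of 9, Ddit4l and Ddit4, at 100 mg/kg (4.94%). These comparisons share the WT libraries.

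Medium spiny neurons are the main cell type of the striatum, and their marker genes were lower in the same libraries. The 10 markers summed to 4090 to 6097 CPM in Q175 vehicle, 3586 to 4858 CPM at 30 mg/kg, 3512 to 6076 CPM at 100 mg/kg and 6010 to 7992 CPM in WT, with none at 0. These sums were scaled to the library total alone, without TMM. Against WT, 5 of 10 fell in Q175 vehicle (Drd1, Gpr6, Pde10a, Penk and Rgs9), 9 of 10 at 30 mg/kg and 8 of 10 at 100 mg/kg. Pde10a, a phosphodiesterase of these neurons, had 1101 ± 246 CPM in Q175 vehicle and 2053 ± 263 CPM in WT. In bulk tissue, fewer cells of a type and less RNA per cell cannot be told apart, and the part of these neurons in the Ddit4l and Deptor values was not tested. Liver RNA made up 0.228%, 0.112% and 0.0692% of the striatal libraries of WT males 1, 2 and 3, and Ddit4l was lower in liver than in striatum. Across the 32 striatal libraries the genes that followed Ddit4l most closely were Hrk (r = 0.95), Hipk4 (0.94), Abi3bp, Anks1b and Chn1 (0.93 each) of 17229 searched. All 5 also fell in Q175 vehicle, by log2 fold changes of -0.41 for Chn1 to -1.07 for Abi3bp, and the likeness was taken over the libraries of all 4 arms.

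In cortex, Ddit4l was lower in Q175 without passing the test. It had 16.5, 20.2 and 25.4 CPM as lowest, median and highest in Q175 vehicle, against 21.6, 30.2 and 35.5 CPM in WT, and 6 of 8 Q175 libraries lay below all of WT. The log2 fold change was -0.50 ± 0.20 (unadjusted p = 0.0203, adjusted p = 1), and without the 2 libraries that held muscle RNA, which are in the 30 mg/kg group but enter the shared spread, it was -0.50 (unadjusted p = 0.000233, adjusted p = 0.148). At 30 mg/kg the female 4 library, 33.0% muscle RNA, had 71.0 CPM and the other 7 had 16.8 to 30.1 CPM. The log2 fold change of 30 mg/kg against vehicle was 0.45 ± 0.21 with the muscle-containing libraries (adjusted p = 0.306) and 0.02 without them (adjusted p = 0.966). Against WT it was -0.05 ± 0.20 with them and -0.48 without them (adjusted p = 0.310).

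In muscle, heart and liver Ddit4l did not pass the test. In tibialis, the tissue with the most Ddit4l, the lowest, median and highest were 175.5, 211 and 369 CPM in Q175 vehicle and 134, 213 and 273 CPM in WT (log2 fold change 0.14 ± 0.15, adjusted p = 1), and without the brain-containing libraries, 2 of them in WT, it was 0.01 (adjusted p = 1). The log2 fold change was 0.07 ± 0.15 in heart (adjusted p = 0.912) and -0.12 ± 0.26 in liver (adjusted p = 0.924), where the level stayed under 4 CPM in every library. None of the 9 genes passed between Q175 and WT on vehicle in cortex (0.0341% of all genes passed), tibialis (0%), heart (0.00626%) or liver (0.00667%) by edgeR or DESeq2. At an unadjusted p under 0.05 there were 1, 1, 0 and 1 of 9 in these tissues. Of all genes 3.21%, 8.00%, 11.2% and 6.75% had the same.

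The difference between tissues was tested on each animal's own difference between striatum and another tissue. The Ddit4l genotype effect in striatum lay below that in cortex by a log2 difference of -1.08 ± 0.21 (limma, adjusted p = 0.0213), below that in heart by -1.66 ± 0.21 (adjusted p = 6.04e-05) and below that in liver by -1.47 ± 0.30 (adjusted p = 0.0169). It lay below that in tibialis by -1.69 ± 0.28 (adjusted p = 0.0176), and by -1.49 without the tibialis libraries that held brain RNA (adjusted p = 0.0639). Over all genes 0.148% passed against cortex, 0.0581% against tibialis, 0.806% against heart and 0.544% against liver. For Deptor the same differences were -0.54 ± 0.21 against cortex (adjusted p = 0.634), -0.52 ± 0.27 against heart (0.392), -0.79 ± 0.30 against tibialis (0.741) and -0.65 ± 0.17 against liver (0.0874), and none passed.

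**Figure D3:**
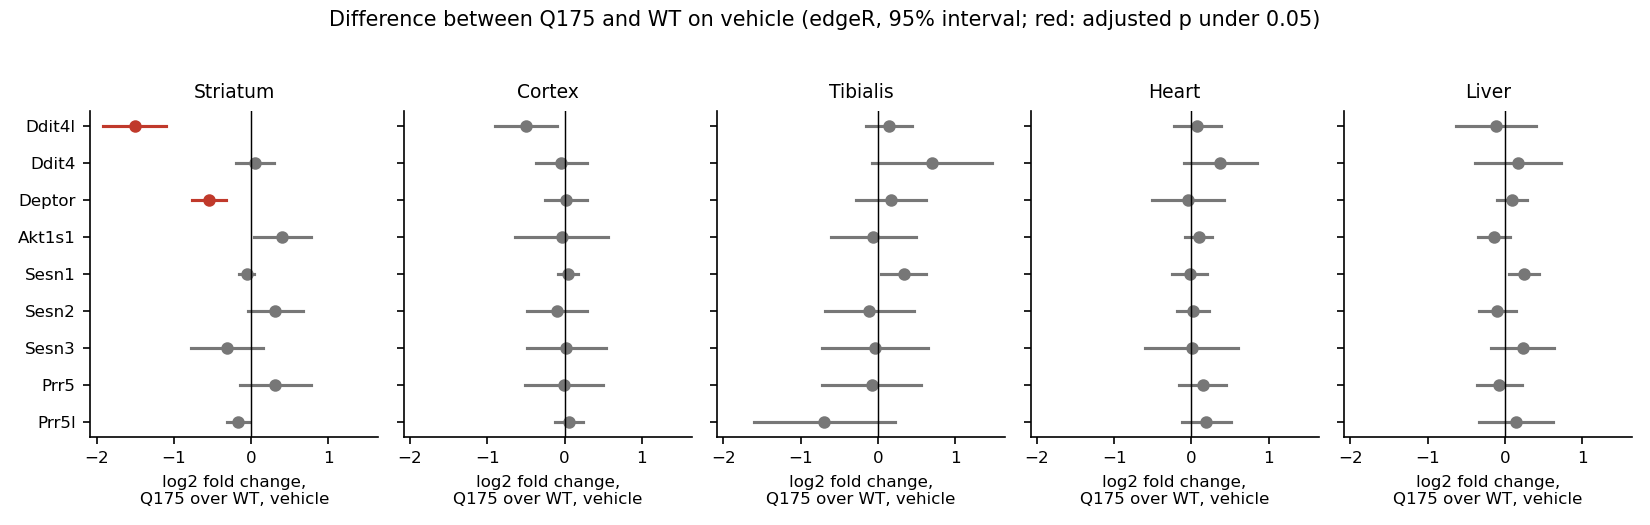
Log2 fold change of Q175 over WT mice on vehicle for the 9 genes in each tissue, with edgeR's 95% interval (8 libraries per group); red marks an adjusted p under 0.05. Ddit4l, at -1.51, and Deptor, at -0.55, in striatum are the red points.

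Over the 5 tissues of an animal, mean log2 CPM of Ddit4l was 3.35 ± 0.16 in Q175 vehicle and 3.74 ± 0.24 in WT, a difference of -0.38, and all 8 Q175 animals lay below the WT mean (exact permutation p = 0.0014, adjusted over 27 tests 0.0378). This mean was chosen after the values were seen and holds the striatal difference. It was the only one of the 27 tests of a gene and a comparison to pass.

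The inhibitor moved none of the 9 genes past the threshold against Q175 vehicle. At 30 mg/kg 0 of 9 passed in edgeR and DESeq2 in all 5 tissues, against 0% of all genes in striatum, 0.318% in cortex, 0% in tibialis, 0.00626% in heart and 0% in liver. At 100 mg/kg 0 of 9 passed in edgeR in all 5, against 0%, 0%, 0%, 0.00626% and 6.85% in the same order, and DESeq2 called 1, Deptor in liver. Over all genes DESeq2 called 1359 of 15001 in liver at that dose. At an unadjusted p under 0.05 striatum had 4 of 9 at 30 mg/kg and 5 of 9 at 100 mg/kg, where 16.7% and 24.6% of all genes had the same. Each other tissue had 0 to 2, where between 1.12% (tibialis at 30 mg/kg) and 21.2% (liver at 100 mg/kg) of all genes had the same.

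Ddit4 was lower at 100 mg/kg than on Q175 vehicle in all 5 tissues, and no tissue passed. The tissues came from the same animals, so these 5 values are not independent. Between tissues of an animal Ddit4 was correlated in 8 of 10 pairs (below). In striatum its lowest, median and highest were 12.9, 20.7 and 22.0 CPM at 100 mg/kg, against 22.1, 24.5 and 34.7 CPM on vehicle, with no overlap. The log2 fold change was -0.49 ± 0.13 (unadjusted p = 0.00052, adjusted p = 0.199), with 19.3 ± 3.33 CPM at 100 mg/kg and 27.0 ± 5.15 CPM on vehicle. In heart it was -0.53 ± 0.24 (adjusted p = 0.437), in cortex -0.48 ± 0.17 (0.811), in tibialis -0.98 ± 0.41 (0.952) and in liver -0.30 ± 0.29 (0.580). Without the libraries that held brain RNA, the tibialis value was -1.21 (adjusted p = 0.656). At 30 mg/kg the values were -0.21 ± 0.12 in striatum, 0.07 ± 0.17 in cortex (-0.08 without the muscle-containing libraries), -0.04 ± 0.40 in tibialis, -0.38 ± 0.24 in heart and -0.50 ± 0.29 in liver. The Ddit4 transcript has 57.9% GC. The median GC slope in striatum was -0.165 at 100 mg/kg and 0.199 on Q175 vehicle. In the same order it was -0.124 and -0.0371 in cortex and -0.0557 and 0.167 in tibialis. In heart it was 0.0218 and 0.0144, and in liver 0.0194 and 0.000954. The part of base composition in the Ddit4 values was not tested beyond the covariate, and these differences on that fit are not given here.

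Against WT, striatal Ddit4 fell at 100 mg/kg, to 19.3 ± 3.33 CPM against 26.0 ± 2.60 CPM, and 5 of 8 libraries lay below all of WT (log2 fold change -0.43 ± 0.13, edgeR adjusted p = 0.0386). This call was lost when any of 10 single libraries was left out: females 1, 3 and 4 and male 2 at 100 mg/kg, or males 1, 3 and 4 and females 1, 2 and 3 of WT, with values from -0.44 to -0.37 and adjusted p from 0.0555 to 0.0974. It was also lost on FPKM (-0.46, limma, log2(FPKM + 0.1)). As the mean of log2 CPM over 5 tissues, Ddit4 was 3.98 ± 0.56 at 100 mg/kg and 4.56 ± 0.44 on vehicle, and 7 of 8 animals lay below the vehicle mean (difference -0.57, exact permutation p = 0.0399, adjusted 0.234).

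**Figure D4:**
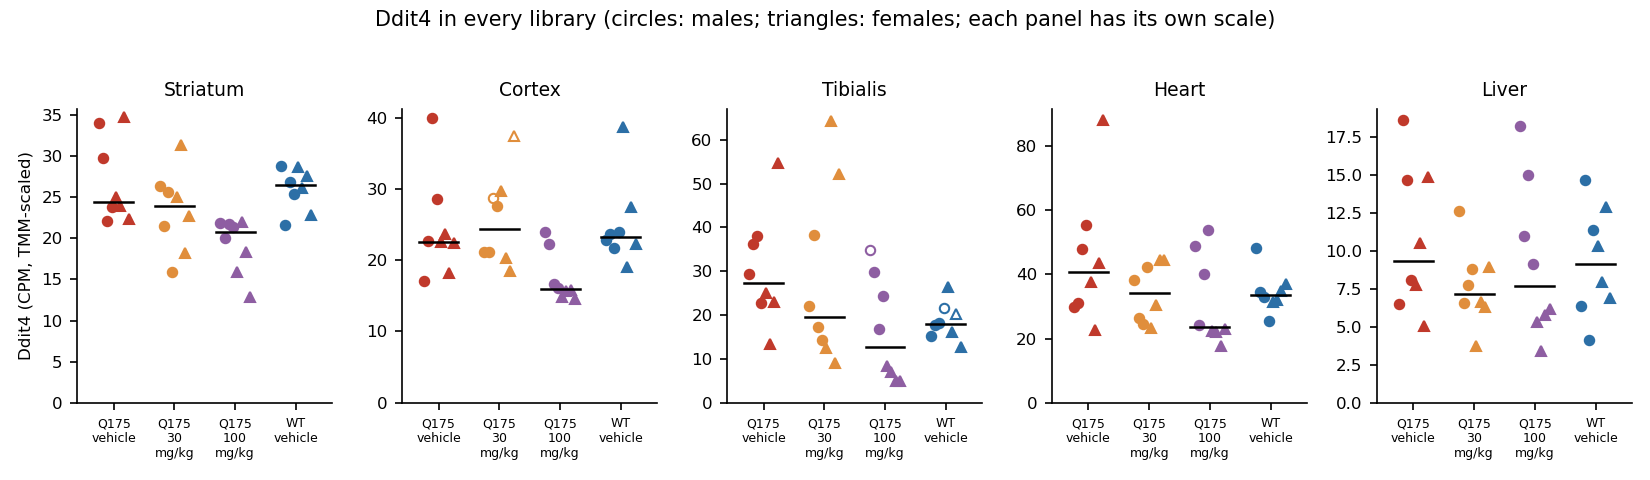
Ddit4 in every library, in CPM on a linear axis that starts at 0 and differs between tissues, by group (8 libraries each, circles for males and triangles for females), with a bar at the median; open points held over 1% RNA of another tissue. At 100 mg/kg the females lie below the males in cortex, tibialis, heart and liver.

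The low Ddit4 values at 100 mg/kg were mostly those of females. The 5-tissue mean of log2 CPM was 3.27 to 3.72 in the 4 females (3.48 ± 0.18) and 4.29 to 4.73 in the 4 males (4.48 ± 0.19) at that dose, with no overlap. In the other groups the sexes overlapped, with 4.48 ± 0.52 in females and 4.64 ± 0.40 in males on Q175 vehicle, 4.32 ± 0.55 and 4.32 ± 0.31 at 30 mg/kg, and 4.38 ± 0.24 and 4.30 ± 0.31 in WT. In tibialis at 100 mg/kg females 1 to 4 had 8.38, 7.11, 5.06 and 4.88 CPM and males 1 to 4 had 34.8, 29.9, 16.9 and 24.3 CPM, male 1 holding brain RNA and having Xist at 45.8% of the female median. In heart the females had 17.7 to 23.0 CPM and the males 24.3 to 53.9 CPM, and in liver the females had 3.40 to 6.19 CPM and the males 9.15 to 18.2 CPM.

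The edgeR term for a dose effect that differs between the sexes, added after these values were seen, did not pass in any tissue. As the effect of 100 mg/kg in females minus that in males it was -0.25 ± 0.25 in striatum (adjusted p = 0.811), -0.06 ± 0.32 in cortex (0.931), -1.20 ± 0.43 in heart (0.144), -1.93 ± 0.65 in tibialis (0.641) and -1.04 ± 0.53 in liver (0.949). The unadjusted p for Ddit4 was 0.00581 in tibialis and 0.0104 in heart. Of all genes, 863 of 14708 in tibialis and 3467 of 15979 in heart had one under 0.05. Without the libraries that held brain RNA the tibialis value of Ddit4 was -1.74 (adjusted p = 0.943). Heart Prr5 had a smaller p than Ddit4 for the same term (-1.11 ± 0.25, unadjusted p = 0.000104, adjusted p = 0.0938), and it did not pass either. Over all genes 0% passed in each tissue: 0% in striatum, 0% in cortex, 0% in tibialis, 0% in heart and 0% in liver.

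Striatal Prr5l, the brain-enriched Rictor partner, had the smallest unadjusted p of the 9 genes at 30 mg/kg. Its lowest, median and highest were 19.4, 23.7 and 27.6 CPM at 30 mg/kg, against 17.4, 18.6 and 21.9 CPM on vehicle, and 7 of 8 libraries lay above all vehicle libraries (log2 fold change 0.30 ± 0.07, unadjusted p = 0.000161, adjusted p = 0.288). At 100 mg/kg it was 0.14 ± 0.07 (adjusted p = 0.203). The GC-rich transcripts of Akt1s1 and Prr5 went the other way in striatum, with log2 fold changes of -0.42 ± 0.19 and -0.51 ± 0.24 at 30 mg/kg and of -0.41 ± 0.19 and -0.52 ± 0.24 at 100 mg/kg, none past the threshold. Their levels followed the GC slope of the library with r = 0.956 and 0.867 in striatum.

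In liver at 100 mg/kg, where 6.85% of genes passed, Deptor had 128, 164 and 196 CPM as lowest, median and highest, against 174.8, 202 and 215 CPM on vehicle, and 5 of 8 libraries lay below all vehicle libraries. The log2 fold change was -0.30 ± 0.10 (adjusted p = 0.0628), with 162 ± 23.7 CPM at 100 mg/kg and 198 ± 16.3 CPM on vehicle. It passed with DESeq2, in a fit of these 2 groups alone and with the GC slope as covariate. It also passed when WT female 2, Q175 vehicle male 4 or Q175 100 mg/kg female 4 was left out (adjusted p = 0.0282, 0.0314 and 0.0349).

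Between the doses, 0 of 9 passed in any tissue by edgeR, where 0% of all genes passed in striatum, 0.693% in cortex, 0% in tibialis, 0% in heart and 0.627% in liver. Cortex had 5 of 9 at an unadjusted p under 0.05, as 45.8% of all its genes had. Cortical Akt1s1 had 7.18 ± 1.47 CPM at 100 mg/kg and 13.4 ± 5.93 CPM at 30 mg/kg (log2 fold change -0.90 ± 0.31), Sesn2 5.03 ± 1.11 and 7.85 ± 1.56 CPM (-0.65 ± 0.20) and Ddit4 17.5 ± 3.56 and 25.6 ± 6.41 CPM (-0.55 ± 0.17), each with an adjusted p of 0.0564. The 30 mg/kg group includes the 2 muscle-containing libraries, of which female 4 had 26.1 CPM of Akt1s1. Without them the 30 mg/kg means were 11.1 ± 3.14 CPM for Akt1s1, 7.55 ± 1.61 for Sesn2 and 23.1 ± 4.45 for Ddit4 (n = 6), and the log2 fold changes were -0.63, -0.59 and -0.41, each with an adjusted p of 0.253. In cortex the 100 mg/kg libraries had a median GC slope of -0.124 and the 30 mg/kg libraries one of 0.332. The part of base composition in these values was not tested beyond the covariate, and these differences on that fit are not given here. Against WT no gene of the 9 passed outside striatum, by edgeR, at 30 mg/kg (0.688% of all genes in cortex, 0% in tibialis, 0.00626% in heart and 0.0533% in liver) or at 100 mg/kg (0.0455%, 0%, 0.0188% and 7.21% in the same order).

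Sex moved several of the 9 genes, mostly in liver. Over all 16 females and 16 males, liver Ddit4l rose in females, with 2.18 ± 0.88 CPM in females and 1.19 ± 0.41 CPM in males, and all 16 females lay above the male median (log2 fold change 0.84 ± 0.19, edgeR adjusted p = 0.00102). Liver Deptor fell in females, to 168 ± 28.8 CPM against 207 ± 27.7 CPM in males, with 15 of 16 females below the male median (-0.31 ± 0.07, adjusted p = 0.00119). Liver Prr5l rose in females (1.62 ± 0.49 against 1.19 ± 0.44 CPM in males, 0.46 ± 0.17, adjusted p = 0.0401) and liver Ddit4 fell (7.65 ± 3.17 against 10.8 ± 4.40 CPM in males, -0.52 ± 0.20, adjusted p = 0.0496). Of 6 other ways of processing, the Ddit4 call was lost in 5 and the Prr5l call in 3, while those of Ddit4l and Deptor passed in all 6. These 4 of 9 stand beside 32.8% of all liver genes that differed by sex.

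In tibialis, Sesn1 rose in females, with 39.0 ± 6.76 CPM in females and 28.1 ± 7.77 CPM in males, and all 16 females lay above the male median (0.48 ± 0.10, edgeR adjusted p = 0.00699, and 0.52 with adjusted p = 0.00247 without the brain-containing libraries). It was the only one of the 9 to pass there, where 2.12% of all genes did. None passed by sex in striatum (0.221% of all genes), cortex (0.0739%) or heart (5.31%) by edgeR or DESeq2, with 3, 1 and 1 of 9 at an unadjusted p under 0.05. In these tissues 11.6%, 5.18% and 23.2% of all genes had such a p. A genotype effect that differed between females and males did not pass for any of the 9 by edgeR (0.0058% of all genes in striatum and 0% in cortex, 0% in tibialis, 0% in heart and 0% in liver), and 4 of the 45 values had an unadjusted p under 0.05.

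Because each animal gave 5 tissues, the genes could be followed between tissues of 1 animal. With arm and sex removed, an animal high for Ddit4 in 1 tissue was high in others: 8 of the 10 tissue pairs passed for both Pearson's r and Spearman's rho (permutation test over 32 animals, 100000 resamples, adjusted over 90 relations). The closest pair was tibialis and heart, with r = 0.75 and rho = 0.78 (adjusted p = 0.00045 and 0.0009), and heart and liver followed with r = 0.69 and rho = 0.71 (0.00045 and 0.0009). Striatum was tied to tibialis with r = 0.68 and rho = 0.71 (0.000675 and 0.0012) and to heart with r = 0.67 and rho = 0.66 (0.0006 and 0.0012). The pairs that did not pass were striatum with cortex, r = 0.37 and rho = 0.43 (0.201 and 0.118), and cortex with liver, r = 0.33 and rho = 0.33 (0.277 and 0.246). Without the 2 animals farthest from the median, r over the 10 pairs was 0.28 to 0.74, and without libraries that held RNA of another tissue or the other sex it was 0.34 to 0.73. Tissue pairs were followed only for the genes named here, and how often other genes pass was not computed.

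Since females at 100 mg/kg were low together, the mean of each arm and sex was also removed, a step added after the values were seen. Then 7 of the 10 pairs passed for Ddit4, with r from 0.24 to 0.67. Of the other 8 genes, 2 of 80 pairs passed on this step, Sesn1 in cortex with heart (r = 0.64, rho = 0.66) and, with the opposite sign, Prr5 in heart with liver (r = -0.55, rho = -0.58). With arm and sex removed as separate terms 1 of 80 had passed, Sesn1 in cortex with heart (r = 0.61, rho = 0.65). Ddit4l passed in 0 of 10 pairs on either step, with r from -0.33 to 0.40 once the mean of each arm and sex was removed and from -0.29 to 0.43 before.

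**Figure D5:**
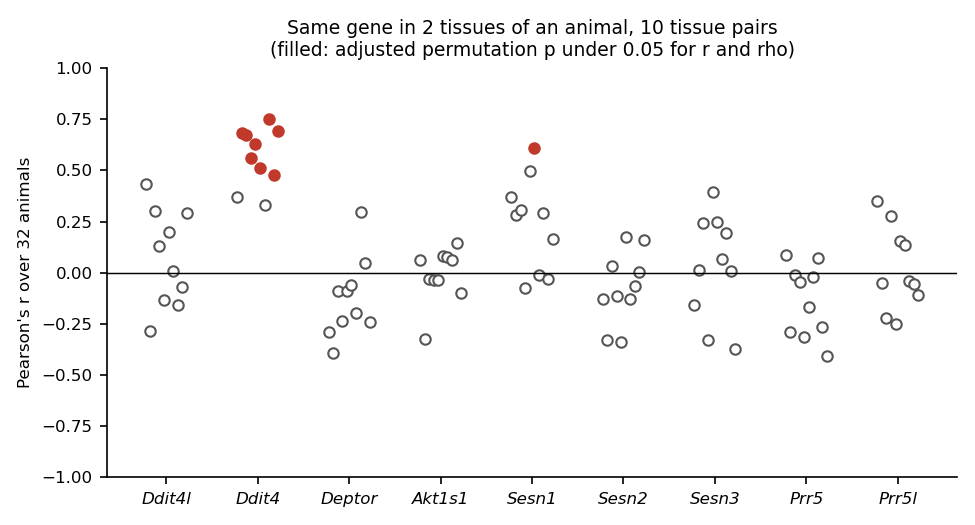
Pearson's r of the same gene between 2 tissues over 32 animals, with arm and sex removed, for the 10 tissue pairs of each gene (1 point per pair); filled points passed the permutation test for r and rho. Ddit4 has 8 filled points between 0.48 and 0.75, and the other 8 genes have 1.

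Within a tissue, pairs of the 9 genes also varied together, and fewer pairs did so once base composition was removed. Of 180 pairs (36 in each of 5 tissues), 44 passed for r and rho by permutation, 15 of them in striatum, 16 in cortex, 6 in tibialis, 3 in heart and 4 in liver. How often pairs of other genes pass was not computed. The GC slope itself passed with 25 of 45 genes and tissues, positively for the GC-rich transcripts Akt1s1 (60.7% GC; r = 0.956, 0.957 and 0.953 in striatum, cortex and tibialis), Prr5 (61.1% GC) and Sesn2 (58.7%), and negatively for Deptor. With the slope removed as well, 6 of 180 passed, among them striatal Ddit4 with Sesn1 (r = 0.70, rho = 0.63) and cortical Sesn3 with Deptor (r = 0.70, rho = 0.70) and with Akt1s1 (r = -0.75, rho = -0.65). Akt1s1 overlaps Tbc1d17 on the opposite strand, a gene at up to 40.2 CPM, and counting is not stated to use strand.

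Few other genes of the mTOR pathway passed the test for the genotype or the doses. In all 5 tissues, 0 of 7 genes of the mTOR complexes, 0 of 5 of the TSC complex and Rheb, 0 of 11 tested of GATOR and KICSTOR (12 listed) and 0 of 13 upstream kinases passed by edgeR for Q175 against WT on vehicle or for either dose against vehicle. None of the mTOR substrates passed in these comparisons either, of 14 tested (13 in heart). In striatum, 1, 0, 1, 3 and 6 genes of these lists had an unadjusted p under 0.05 for the genotype, in the order named, where 21.5% of all genes had the same. Of 15 Rag and Ragulator genes, which carry the amino acid signal to the lysosome, Rragd fell in Q175 striatum, to 275 ± 30.2 CPM against 355 ± 54.6 CPM in WT (log2 fold change -0.37 ± 0.09, edgeR adjusted p = 0.0130). Slc38a9, a lysosomal amino acid transporter of the same list, fell in liver at 100 mg/kg, to 9.01 ± 0.54 CPM against 10.6 ± 0.81 CPM on vehicle (-0.24 ± 0.06, adjusted p = 0.0184). Over the 6 lists, 1 of 65 passed for the genotype in striatum (1.54%), where 5.76% of all genes did. In liver at 100 mg/kg it was 1 of 65 (1.54%), where 6.85% of all genes passed. In the other comparisons of genotype or dose with vehicle at most 0.318% of all genes passed, so few calls could occur there. Against WT, the mTOR complex 2 target Sgk1 fell in striatum at 100 mg/kg, to 134 ± 33.6 CPM against 193 ± 29.9 CPM (-0.55, adjusted p = 0.00813), and liver Rps6kb1, which encodes S6 kinase, rose (0.17, adjusted p = 0.0481).

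Genes of the programmes that are known to induce Ddit4 or the sestrins were counted in the same way. In Q175 striatum on vehicle, 2 of 11 FoxO targets fell: Fbxo32, with 55.8 ± 8.25 CPM in Q175 and 78.4 ± 10.9 CPM in WT (-0.49 ± 0.09, edgeR adjusted p = 0.000646), and Foxo1 itself (-0.47 ± 0.08, adjusted p = 0.000548). Of 13 glucocorticoid-induced genes Klf9 fell (-0.31, adjusted p = 0.0410), of 13 p53 targets Plk2 fell (-0.31, adjusted p = 0.00434), of 12 hypoxia-induced genes P4ha1 fell (-0.40, adjusted p = 0.0112), and of 14 ATF4 targets Stc2 rose (0.58 ± 0.11, adjusted p = 0.000929). Over the 5 lists 6 of 63 entries passed (9.52%), where 5.76% of all genes did. Cdkn1a, Pdk4 and Bnip3 are each in 2 of the lists, so entries are not distinct genes. The median log2 fold changes of these lists were between -0.12 and 0.075, against 0.0189 over all genes. In liver at 100 mg/kg, where 6.85% of all genes passed, 8 of 61 entries of these lists did (13.1%). Of the glucocorticoid-induced genes, 4 of 13 fell and 0 rose, with a list median of -0.51 against -0.016 over all genes. They were Per1, with 20.1 ± 9.26 CPM at 100 mg/kg and 34.5 ± 11.5 CPM on vehicle (-0.82 ± 0.24, adjusted p = 0.0369), Errfi1 (-0.75), Klf9 (-0.51) and Nfkbia (-0.33). Of 13 p53 targets Btg2 (-1.36) and Eda2r (-1.49) fell, of 12 ATF4 targets Chac1 fell (-1.21) and Vldlr rose (1.18), and of 11 FoxO targets and 12 hypoxia-induced genes none passed in edgeR, with 7 and 1 at an unadjusted p under 0.05. Among all liver genes 21.2% had such a p in this comparison.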

How the data were processed

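The deposited count table holds estimated counts, 1 value per gene and library, and the authors' other deposited table gives FPKM, in which counts are divided by library size and by a length per gene. CASAVA 1.8.2 is named in the submitters' processing notes. For the aligner, counting program, genome build and use of strand, nothing is given in the sources used here. RNA came from a Qiagen miRNeasy kit, and libraries followed Illumina protocols, per the labels. Of the count values above 0, 26.3% were not whole (tolerance 0.001), so estimated counts were rounded. Symbols matched 42462 of 43432 identifiers. The labels name no sequencing batch.

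Each tissue was fitted with edgeR 4.0.16 in R 4.3.3 (filterByExpr, TMM, robust quasi-likelihood fit) on group and sex over its 32 libraries. Tissue contrasts in WT had animal as a block. Differences of an effect between tissues used limma 3.58.1 on log2 CPM (prior count 2), and DESeq2 1.42.0 and limma on log2(FPKM + 0.1) or log2(FPKM + 1) were alternatives. Labels give separate animals. The fit was tested on simulated data. Depth was 29.81 M to 44.88 M counts per library, which sets counting error only.

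RNA of another tissue was measured as the median over marker genes of a library's CPM relative to the source tissue, with a limit of 1%. The genes and lists were chosen with earlier results of these data known. All 9 genes are named, with up to 2 rising and 2 falling genes per list and comparison, and further ones chosen after their values were seen. The GC slope, the 5-tissue means, the sex-by-dose term and the removal of arm-by-sex means or GC slope before correlation were chosen after the values were seen. Permutation tests drew 100000 resamples, with a smallest p of 1e-05. Promoters are from RefSeq. Coordinates of genes are not printed, since the build of the files is unknown.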

Additional observations from a re-analysis of the deposited data

Results flagged for a closer look

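A library far from the other 7 of its group was sought in 180 groups of 8 (9 genes, 5 tissues, 4 arms) with Dixon's ratio over its 95% critical value. About 1 group in 20 is marked by chance, and 13 were. For Ddit4l they were 22.0 CPM in striatum of Q175 vehicle male 2, 71.0 CPM in cortex of Q175 30 mg/kg female 4, which held 33.0% muscle RNA, and 369 CPM in tibialis of Q175 vehicle male 3. For Ddit4 it was 38.7 CPM in cortex of WT female 1. Striatal male 2 and cortical male 3 of Q175 vehicle were the same animal, as were cortical and tibialis female 4 at 30 mg/kg.

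For Akt1s1 they were 24.9 CPM in cortex of Q175 vehicle male 3, 26.1 CPM in cortex of Q175 30 mg/kg female 4, 49.3 CPM in tibialis of Q175 30 mg/kg female 4 and 40.1 CPM in liver of WT female 2. For Sesn3 they were 1.41 CPM, the lowest value, in tibialis of Q175 100 mg/kg male 4 and 6.96 CPM in liver of Q175 100 mg/kg female 4. For Prr5 it was 2.22 CPM in striatum of Q175 100 mg/kg female 2. For Prr5l they were 0.762 CPM in tibialis of Q175 vehicle female 1 and 1.29 CPM in tibialis of Q175 100 mg/kg male 1, which held 12.2% brain RNA. The part of that RNA in these values was not tested.

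The Ddit4l genotype effect differed between striatum and each other tissue by limma's test of the difference, by -1.08 against cortex, -1.69 against tibialis, -1.66 against heart and -1.47 against liver on the log2 scale.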

How the results depend on the processing

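Of 13793 recomputed values of 366 results, 13673 were unchanged, which for an uncalled value means only that it stayed uncalled, whatever its sign. Of the called values 0 changed sign. Among uncalled values the sign changed in 713 of 12079 (5.90%). In males alone 0 and in females alone 1 of the 9 genes passed in Q175 against WT striatum, where Ddit4l was -1.40 in males and Deptor -0.53 in males and -0.57 in females, none past the threshold, with 4 libraries a group. At 30 mg/kg against WT 2 passed in striatum on log2(FPKM + 0.1), on log2(FPKM + 1) and with the GC slope. At 100 mg/kg against WT 1 passed without a count filter and on either FPKM scale, 0 in males, where Ddit4l was -0.89, and 1 in females. Ddit4 was -0.43 there without a filter, -0.46 and -0.43 on FPKM, -0.28 in males and -0.61 in females, no longer past the threshold. Between the doses in cortex 4 passed with DESeq2, which called 4737 of 17597 genes there, and 5 with only these 2 groups fitted. For the other alternatives in this paragraph the share of all genes is not given. In liver at 100 mg/kg 1, Deptor, passed with DESeq2, with 2 groups fitted and with the GC slope. By sex, 3 passed in tibialis with the GC slope, 1 in heart on either FPKM scale, and 2 in liver without a filter. Liver Ddit4 by sex lost its call with RLE scaling (-0.52), no filter (-0.53), FPKM (-0.44 and -0.38) and the GC slope (-0.52), and liver Prr5l with no filter (0.46) and FPKM (0.34 and 0.11). WT heart against liver gave 5 on FPKM. The Ddit4l effect in striatum minus tibialis was -1.49 without libraries of another tissue (adjusted p = 0.0639). The causes were not tested.

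With each library left out in turn, 1 to 2 genes passed at 100 mg/kg against WT in striatum (Ddit4 -0.48 to -0.37), 0 to 4 between the doses in cortex, 0 to 1 at 100 mg/kg in liver and 0 to 1 at 100 mg/kg against WT in liver. The cortex count was 3 or 4 without WT females 2 or 3, 30 mg/kg males 1 or 2, 100 mg/kg female 4 or Q175 vehicle male 3 or female 4, and the last liver count was 1 without WT female 2. Animals with the same replicate number share only a number: 2 of 8 pairs had a correlation over 0.1 in the striatal genotype comparison. With that number as a replicate block, Ddit4l was -1.51 (adjusted p = 9.88e-05) and Deptor -0.55 (adjusted p = 0.00197) in Q175 striatum. The covariate for the form of column names could not be fitted in liver, and libraries over the limit for another tissue were in cortex and tibialis. Genes under about 1 CPM, such as Prr5l in tibialis, are limited by depth.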

Other observations

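In liver, genes of the mTOR pathway differed by sex about as often as genes at large: 22 of 65 over the 6 lists passed (33.8%), where 32.8% of all genes did. Of 14 mTOR substrates 5 fell in females and 0 rose: Eif4ebp3, a translation repressor that mTOR controls, had 9.17 ± 4.34 CPM in females and 34.8 ± 14.2 CPM in males (log2 fold change -1.95 ± 0.23, edgeR adjusted p = 1.58e-07), and Lpin1, a lipid regulator, had 134 ± 70.9 CPM in females and 288 ± 123 CPM in males (-1.17 ± 0.24, adjusted p = 0.000471). Of 11 GATOR and KICSTOR genes 5 fell and 0 rose, Nprl3 most (-0.31 ± 0.06, adjusted p = 8.29e-05). Of 13 upstream kinases 2 rose and 3 fell, of 15 Rag and Ragulator genes 2 rose and 2 fell, of 7 genes of the mTOR complexes 2 fell, and of 5 of the TSC complex and Rheb 1 fell. Irs2, which couples the insulin receptor to PI3 kinase, had 15.3 ± 7.69 CPM in females and 8.15 ± 2.59 CPM in males (0.88 ± 0.19, adjusted p = 0.000992). The list medians were -0.12 for substrates, -0.14 for GATOR and KICSTOR, -0.029 for upstream kinases, 0.0091 for Rag and Ragulator, -0.074 for the mTOR complexes and -0.066 for the TSC complex and Rheb, against 0.0113 over all genes.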
